A study of Homo sapiens with 18 samples.

Results

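The stretch of chromosome 14 from 97200000 to 97800000 (hg19, 600 kb) holds the kinase gene VRK1. Beyond the end of the gene, this stretch holds sites bound by RING1B, some of them also by EWSR1-FLI1, in A673 Ewing sarcoma cells. Its members were all peaks of the 5 deposited lists that overlapped this interval, 13 of 45354 peaks. They were 5 of 2573 peaks of RING1B replicate 1, 5 of 3945 of RING1B replicate 2, 3 of 2145 of EWSR1-FLI1, and 0 of 26423 and 0 of 10268 of H2Aub1 replicates 1 and 2. The interval was chosen by peak scores of RING1B and EWSR1-FLI1 that were already known to be high there, and by a known lack of H2Aub1 peaks. Its peak scores, overlaps and H2Aub1 counts are therefore a description, with no test.

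All 5 samples are chromatin immunoprecipitation sequencing (ChIP-seq) of the established Ewing sarcoma line A673, untreated per the labels. Antibodies were against RING1B (2 replicates), monoubiquitinated H2A (H2Aub1, 2 replicates) and EWSR1-FLI1 (1 sample, so its values have no replicate check). The series holds 18 samples, and the other 13 (input DNA, CBX7, BMI1 and shRNA against RING1B or control) were not analysed here. Separate cultures are not named for the replicates, so their agreement may be technical. All of the data come from 1 cell line, and no mark of active enhancers or expression was among the lists, so "distal enhancer cluster" is a working name that these peaks do not measure.

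VRK1 is a serine/threonine kinase of the cell nucleus that acts during cell division, and its substrates include the chromatin protein BANF1, which helps to rebuild the nuclear envelope. EWSR1-FLI1 is the fusion protein that drives Ewing sarcoma and joins part of EWSR1 to the DNA-binding ETS domain of FLI1. It binds ETS sites and repeats of the GGAA motif, often far from genes. RING1B is the ubiquitin ligase of Polycomb repressive complex 1, and H2Aub1 is the histone mark it deposits.

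The body of VRK1 and its start site held no peak of any of the 5 lists. VRK1 spans 97263684 to 97347951 in hg19, bounds that were supplied with the interval, and the 13 peaks fell into 6 sites, all beyond the end of the gene. Read from left to right, the sites are numbered 1 to 6. Sites 2, 5 and 6 carried RING1B in both replicates and EWSR1-FLI1. Site 1 carried RING1B in both replicates without EWSR1-FLI1, site 3 was called only in RING1B replicate 1, and site 4 only in RING1B replicate 2. In the RefSeq gene table (assembly GRCh38.p14, used for gene order only), the nearest protein-coding gene before VRK1 is PAPOLA, a poly(A) polymerase, and the next one after it is BCL11B, a zinc-finger transcription factor. Between VRK1 and BCL11B that table lists 27 non-coding genes, 24 of them long non-coding RNAs, starting with LINC00618. Whether a site lies within one of these was not determined here.

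**Figure D1:**
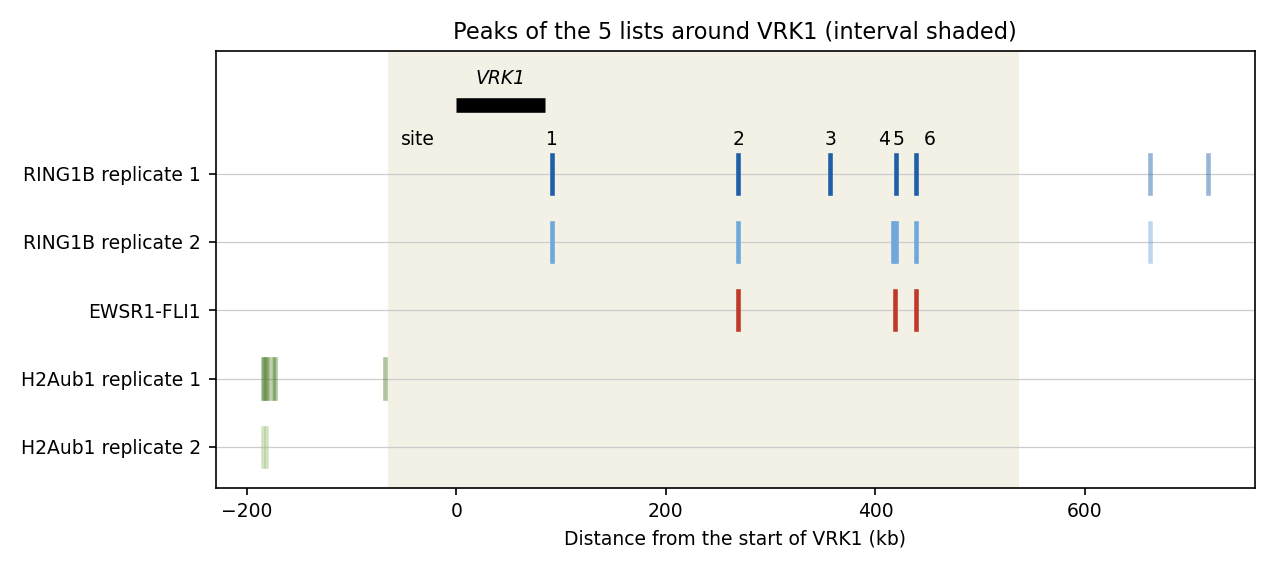
Peaks of the 5 lists drawn as marks at their centres (mark width not to scale) against distance from the start of VRK1 in kb, with the 600 kb interval shaded and peaks outside it in paler colour. The 13 marks in the interval form 6 sites to the right of VRK1, and both H2Aub1 rows are empty in the shaded area.

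Site 5 ranked highest of the 6 in all 3 lists that held it. Its EWSR1-FLI1 peak (97681430 to 97682785, 1356 bp) had a score of 1547.05, which was rank 7 of 2145. The RING1B peak of replicate 1 (97681312 to 97684556, 3245 bp) had a score of 1703.36 and rank 15 of 2573. The RING1B peak of replicate 2 (97681356 to 97685033, 3678 bp) had a score of 1369.39 and rank 13 of 3945. All 3 peaks thus stood in the top 0.583% of their own list or higher. Scores are the authors' values on a scale not given in the sources used here, and each was ranked only within its own list. Measured from its centre, the EWSR1-FLI1 peak lay 418.4 kb beyond the start and 334.2 kb beyond the end of VRK1.

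Site 2 ranked next among the 6 sites in each of these lists. EWSR1-FLI1 (97531898 to 97533502, 1605 bp) had a score of 802.00 and rank 40 of 2145, RING1B replicate 1 (97531905 to 97533638, 1734 bp) 1218.89 and rank 29, and RING1B replicate 2 (97531782 to 97533504, 1723 bp) 940.79 and rank 34. The EWSR1-FLI1 peak of site 2 lay 184.7 kb beyond the end of VRK1, and its centre was 149.4 kb from that of site 5. Measured on RING1B, the 2 sites were 150.2 kb apart in replicate 1 and 150.6 kb apart in replicate 2.

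Site 6 was the weakest of the shared sites and the shared site closest to site 5. Its EWSR1-FLI1 peak (97701598 to 97702585, 988 bp) had a score of 277.64 and rank 316. Its RING1B peaks were 1179 bp (97701403 to 97702581, score 309.55, rank 320) in replicate 1 and 1206 bp (97701377 to 97702582, score 192.80, rank 528) in replicate 2. These ranks correspond to the top 14.7%, 12.4% and 13.4% of the lists. The centres of sites 5 and 6 were 19984 bp apart for EWSR1-FLI1 and 19058 and 18785 bp apart for RING1B replicates 1 and 2. The order of the 3 shared sites, with 5 above 2 and 2 above 6, was the same in EWSR1-FLI1 and in both RING1B replicates. The interval was chosen for the strength of sites 2 and 5, so their place above site 6 was given by that choice. Only the order of sites 5 and 2 was not set by it.

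Site 1 was the only site close to VRK1 and was bound by RING1B without an EWSR1-FLI1 peak. The RING1B peak of replicate 1 (97354591 to 97355592, 1002 bp, score 87.95) began 6640 bp beyond the end of the gene, and that of replicate 2 (97354670 to 97355624, 955 bp, score 64.74) began 6719 bp beyond it. Both were ordinary members of their lists, at rank 1304 of 2573 and rank 2648 of 3945, where the median scores were 88.9 and 78.2. Of the 100 peaks nearest in score rank, 48 overlapped EWSR1-FLI1 in replicate 1 and 15 in replicate 2. Of the same 100 peaks, 54 of those of replicate 1 and 20 of those of replicate 2 were found in the other replicate.

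**Figure D2:**
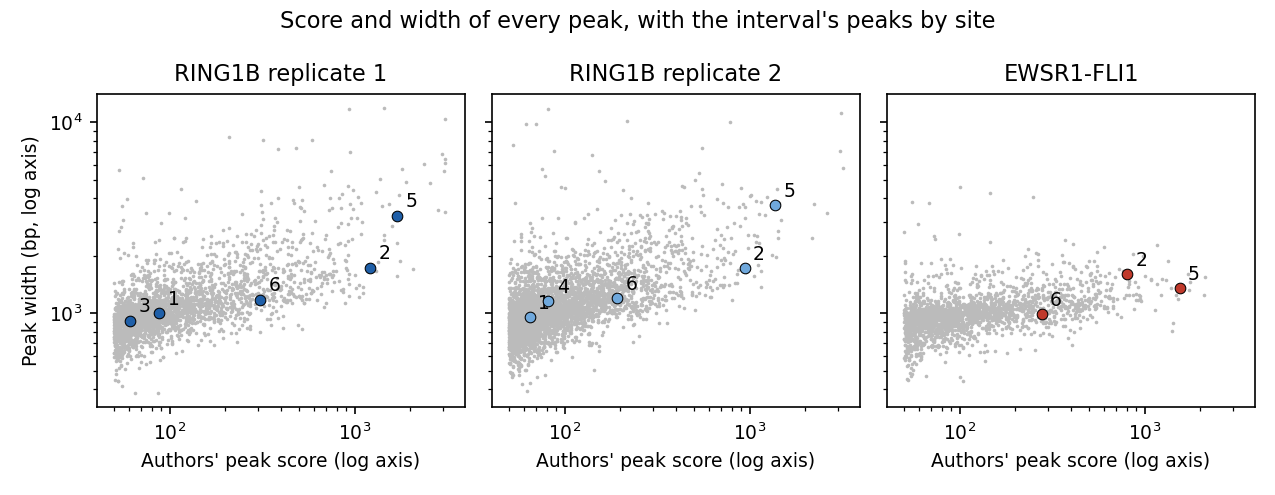
Each grey point is a peak of RING1B replicate 1, RING1B replicate 2 or EWSR1-FLI1, by the authors' score and the width in bp (both log axes), and the coloured points are the peaks of the interval with their site number. Sites 5 and 2 lie at the high-score end of all 3 lists, and on RING1B site 5 (3245 and 3678 bp) is wider than site 2 (1734 and 1723 bp).

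Sites 3 and 4 were each called in 1 RING1B replicate. The peak at site 3 (97620100 to 97621015, 916 bp) had a score of 61.27 in replicate 1, rank 2024 of 2573, with 58799 bp between it and the nearest replicate 2 peak. The peak at site 4 (97679815 to 97680974, 1160 bp) had a score of 81.79 in replicate 2, rank 1835 of 3945. Peaks of such scores were found again in a minority of cases. Of the 100 replicate 1 peaks nearest in rank to site 3, 41 were found in replicate 2, and of the 100 replicate 2 peaks nearest to site 4, 30 were found in replicate 1. Site 4 nearly touched site 5, with 381 bp between it and the site 5 peak of its own list and 337 bp between it and that of replicate 1. Within 500 bp of another peak of the same list lay 3.50% of replicate 2 peaks and 4.70% of replicate 1 peaks. In all, 4 of 5 RING1B peaks of the interval were found again in each direction, beside 62.6% of all replicate 1 peaks and 40.9% of all replicate 2 peaks. The 4 include sites 2 and 5, for whose high scores the interval was chosen, so the whole-list shares are no like comparison. Of the 100 replicate 1 peaks nearest in rank to sites 2, 5 and 6, 100, 100 and 99 were found again. For replicate 2 these numbers were 100, 100 and 83.

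The RING1B peaks of site 5 reached far past the EWSR1-FLI1 peak on 1 side. On the left, the side of VRK1, the RING1B peaks began 118 bp (replicate 1) and 74 bp (replicate 2) before the EWSR1-FLI1 peak. On the right they ended 1771 bp and 2248 bp after it. Over the 892 EWSR1-FLI1 peaks that overlapped RING1B in both replicates, the larger of the left and right extensions had a median of 93.0 bp in replicate 1 and 122.5 bp in replicate 2. Site 5 ranked 2 of 892 by this extension in each replicate, so the 1-sided extension was seen in both. The RING1B peak was 2.39 times as wide as the EWSR1-FLI1 peak in replicate 1 and 2.71 times in replicate 2, rank 5 of 892 in each, where the medians were 1.06 and 1.10. The centre of the RING1B peak lay 826.5 bp (replicate 1) and 1087.0 bp (replicate 2) to the right of the EWSR1-FLI1 centre, against median distances of 63.5 and 64.8 bp.

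The width of site 5 on RING1B was high for the whole list but within the range of peaks of like score. The list medians were 1029 bp in replicate 1 and 1035 bp in replicate 2. Among the 20 peaks nearest in score rank, 12 were wider in replicate 1 (range 1563 to 11944 bp) and 6 in replicate 2 (range 1379 to 7086 bp). The EWSR1-FLI1 peak of site 5 was also no wider than its peers, since 11 of the 20 nearest were wider. As a merged region of both replicates (97681312 to 97685033, 3722 bp), site 5 was the 6th widest of the 892 RING1B regions with EWSR1-FLI1.

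At sites 2 and 6 the RING1B peaks did not reach far past the EWSR1-FLI1 peak on either side, with extensions of at most 136 bp at site 2 and 221 bp at site 6. Site 2 was wide for its lists, in the top 3.54% by width for EWSR1-FLI1 and the top 10.5% and 9.46% for RING1B. For its score it was not wide on RING1B. Of the 20 peaks nearest in score rank, 14 (replicate 1) and 15 (replicate 2) were wider, against 3 for EWSR1-FLI1. Those peers include peaks without EWSR1-FLI1. As merged regions, site 2 ranked 109 and site 6 ranked 509 by width of the 892 RING1B regions with EWSR1-FLI1. At site 6, 18 and 14 of the 20 nearest were wider on RING1B and 13 on EWSR1-FLI1. At site 6 RING1B was 1.19 and 1.22 times as wide as EWSR1-FLI1, above the medians of 1.06 and 1.10. At site 2 the left edges of the 3 peaks lay within 123 bp and the right edges within 136 bp. RING1B centres were 71.5 bp to the right (replicate 1) and 57.0 bp to the left (replicate 2) of the EWSR1-FLI1 centre, which is less than the 128.5 bp between both replicates. At site 6 the right edges of the 3 peaks lay within 4 bp of each other, at 97702581, 97702582 and 97702585, while the left edges spread over 221 bp, more than the median. It was the only one of the 892 triples with a right-edge spread of 4 bp or less (0.112%), where the median spread was 146 bp on the right and 148 bp on the left. The RING1B centres of site 6 were 99.5 and 112.0 bp to the left of the EWSR1-FLI1 centre and 12.5 bp from each other. These edge comparisons were chosen after the values were seen. Peak edges depend on the peak caller's settings and on read depth, which are not given in the sources used here.

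**Figure D3:**
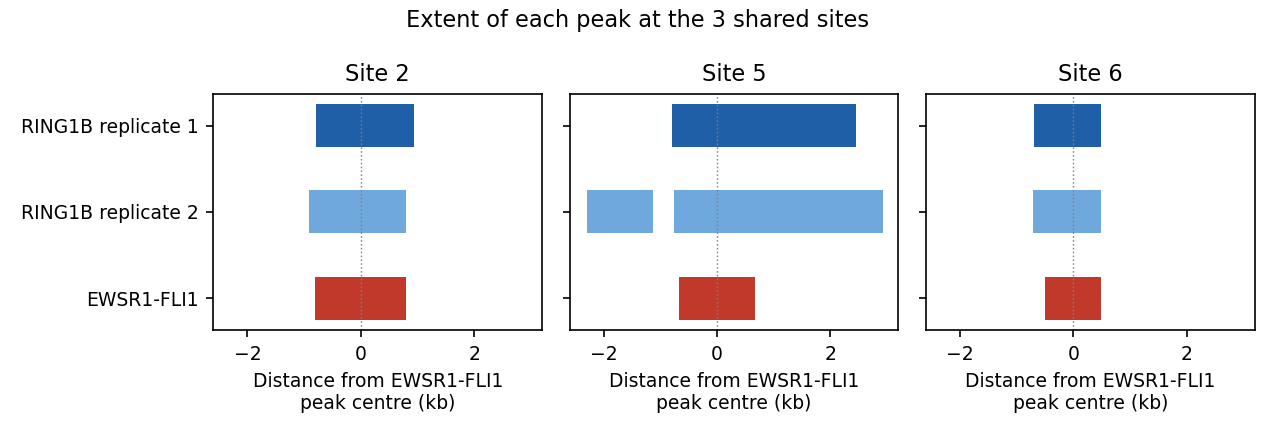
Extent of every peak at sites 2, 5 and 6 in kb from the centre of the EWSR1-FLI1 peak (dotted line), 1 row for each list. At site 5 the RING1B bars run to the right by 1771 and 2248 bp past the EWSR1-FLI1 bar, and the separate bar on the left in replicate 2 is site 4. At site 6 all 3 bars end within 4 bp.

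Reproducible RING1B regions are merged RING1B peaks with at least 1 bp in common and at least 1 peak from each replicate. The interval held 4 of these, at sites 1, 2, 5 and 6, and 3 of the 4 carried EWSR1-FLI1, beside 56.2% of all 1587 reproducible RING1B regions. All 3 EWSR1-FLI1 peaks of the interval carried a reproducible RING1B region, beside 41.8% of all 2145 (897 peaks). The 892 shared regions counted here are merged RING1B regions with EWSR1-FLI1. They are a different set from the 892 triples above, which are EWSR1-FLI1 peaks that overlapped a peak of each RING1B replicate. When the 892 shared regions were ordered by their mean score rank over both replicates, site 5 was 2nd, site 2 was 8th and site 6 was 222nd. Sites 2 and 5 were the only pair among the 10 highest that lay within 200 kb of each other, and they were also the only such pair among the 25 highest. Among the 50 highest there were 5 such pairs, and among the 100 highest 8.

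Cut into 5148 windows of 600 kb, the genome rarely held as many of these sites in a window. At least 3 EWSR1-FLI1 peaks were present in 3.65% of the windows, at least 4 reproducible RING1B regions in 0.777%, and at least 3 shared regions in 0.952% (49 windows). The interval was thus 1 of 49 windows with at least 3 shared regions, of which 39 held exactly 3, 8 held 4 and 2 held 5. It was the only window with 2 of the 25 highest shared regions, and 1 of 6 with at least 2 of the 100 highest. The interval coincides with 1 of these windows, and it was picked for its sites, so its place among them shows how common such a window is and is no test.

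H2Aub1 was not called at any site. Neither replicate had a peak in the interval, and 0 of the 4 reproducible RING1B regions overlapped an H2Aub1 peak of either replicate, beside 27.7% of all 1587 (19.8% where the H2Aub1 region had to be found in both replicates). Among the 892 RING1B regions with EWSR1-FLI1 that share was 14.7%, so 0 of 3 is what most such regions showed. A lack of H2Aub1 was also common by window. No H2Aub1 peak of either replicate lay in 41.5% of all 600 kb windows, including unassembled stretches, which can hold none, and any peak-free chromosome. The same was true of 29.3% of the 665 windows with a shared region. It was also true of 13 of the 49 windows with at least 3 shared regions (26.5%). A peak list gives only sites above the caller's threshold, so H2Aub1 below it cannot be told from none.

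The interval lay in a long stretch without H2Aub1 peaks. In replicate 1 that stretch ran from 97195798 to 98603173 (1.41 Mb) and in replicate 2 from 97082627 to 99753553 (2.67 Mb). Gaps of at least this length made up 1.42% of the 26400 gaps between neighbouring peaks in replicate 1 (376 gaps), where the median was 6.22 kb. In replicate 2 they made up 2.11% of 10245 gaps (216 gaps), where the median was 14.6 kb. These are shares of the number of gaps, most of which are short. Long gaps cover a larger share of the genome than of the gap number, and that share was not computed. The nearest H2Aub1 peaks all lay on the left, on the far side of VRK1. Site 2 was 336 kb from the nearest peak of replicate 1 and 449 kb from that of replicate 2, site 5 was 486 and 599 kb away, and site 6 was 506 and 619 kb away. Over all 892 shared regions the median distances were 124 and 293 kb, and 17.8% and 31.8% of them lay as far from H2Aub1 as site 5.

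**Figure D4:**
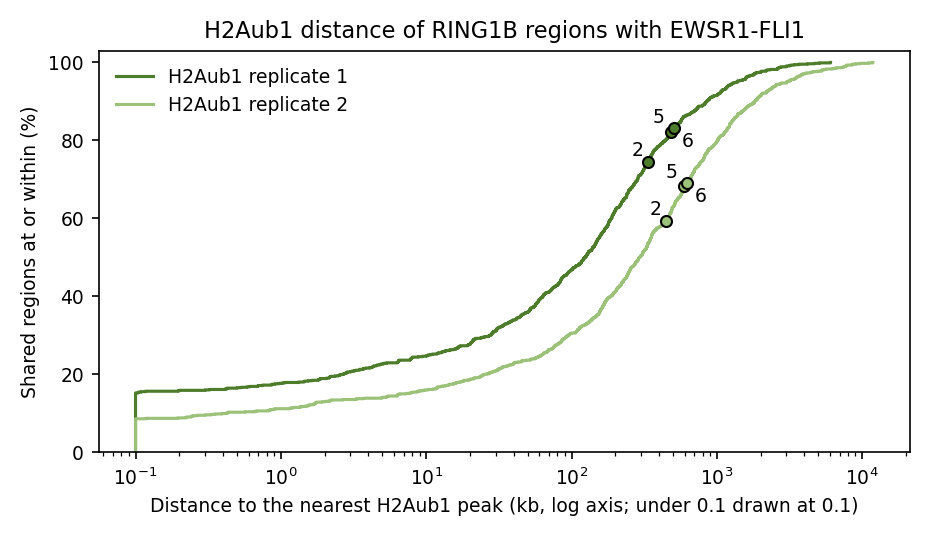
Share of the 892 RING1B regions with EWSR1-FLI1 (vertical axis, %) that lie at or within a given distance of an H2Aub1 peak (horizontal axis, kb, log scale), 1 line for each H2Aub1 replicate, with sites 2, 5 and 6 as points. The 3 sites lie above the medians of 124 kb (replicate 1) and 293 kb (replicate 2). Depending on the site, 16.9% to 25.7% of regions lie at least as far in replicate 1 and 31.1% to 40.8% in replicate 2.

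The bounds of the interval matter for H2Aub1 in replicate 1. A peak from 97194972 to 97195797 (826 bp, score 52.92, rank 24285 of 26423) ended 4.2 kb outside the left bound and 67887 bp before VRK1. In replicate 2 the nearest peak on that side (97081652 to 97082626, score 54.61) ended 117.4 kb outside. To the right, the nearest H2Aub1 peaks were 803.2 and 1953.6 kb outside. RING1B was next found on the right at 97924860 to 97925845 in replicate 1 (score 57.06) and 97924778 to 97926083 in replicate 2 (score 63.15), about 125 kb outside. EWSR1-FLI1 was next found 254.8 kb outside on the left (96944065 to 96945183, score 113.01), where RING1B replicate 1 also had a peak (96944077 to 96945035, score 61.49). On the right, no EWSR1-FLI1 peak followed site 6 for 3.62 Mb. Gaps of at least that length made up 9.66% of the 2122 gaps in that list, where the median was 514 kb. That share is by number of gaps, and the share of the genome within such gaps is larger. The gap before site 2 measured 587 kb.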

How the data were processed

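Peak lists of 5 ChIP-seq samples of A673 were used as the authors deposited them. Bowtie and hg19 are named in the submitters' processing notes, as is mm9 for RING1B and H2Aub1, with no stated use. Each deposited peak has a name that starts with MACS, a peak caller. Caller settings, background and versions are not given in the sources used here. Each peak carries a score deposited by the authors, lowest close to 50 in every list (50.00 to 50.04), used only within a list. The lists hold no read counts, so depth is unknown. No peak reached beyond a chromosome end (hg19 lengths from GenomeInfoDb 1.38.1).

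The interval, its members and the comparisons were chosen with earlier results of these data known. Positions are hg19, written 1-based. Overlap meant at least 1 bp. Centres are midpoints of peaks. Windows were tiled from the first base of each chromosome, leaving out incomplete ones. Unassembled stretches were kept, as was any chromosome on which a list held no peak. Both raise the share of empty windows and lower the shares of windows with many sites. Every region with peaks of at least 2 of the RING1B and EWSR1-FLI1 lists was to be described in full, and single peaks were added so that all members are accounted for. The 10 highest shared regions were ranked by mean score percentile over both RING1B replicates. Overlap functions were tested on simulated data. Calculations used Python 3.11.15. A genome of hg19 was not used here, so no peak sequence is shown and the planned search for GGAA repeats and the count of peaks near VRK1 substrate genes were not run. VRK1 was matched by symbol in the RefSeq gene table.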

Additional observations from a re-analysis of the deposited data

How the results depend on the processing

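The number of RING1B regions of the interval with EWSR1-FLI1 was 3, that with H2Aub1 was 0, and that of EWSR1-FLI1 peaks with RING1B was 3 in all 20 alternatives tried for these counts. These asked for 50% of the shorter region, for the centre of a region to lie inside the other region or within 500 bp of its edge, for the union of replicates, for the highest-scoring 50% of each list, or left out a replicate (3 to 3, 0 to 0 and 3 to 3). The number of RING1B regions in the interval changed from 4 to 6 for the union, to 3 for the highest-scoring 50%, and to 5 when replicate 1 or replicate 2 of RING1B was left out. The H2Aub1 count of 0 could not change, because the interval held no H2Aub1 peak and the nearest lay 159 kb from any site. Nor could the score cut or a left-out replicate remove sites 2, 5 and 6. They stood in the top 14.7% of their lists or higher, with RING1B in both replicates. With windows shifted by 300 kb, the window from 97500001 on held 3 EWSR1-FLI1 peaks and 4 RING1B regions. It leaves out VRK1 and site 1, and holds besides sites 2, 5 and 6 the RING1B region at 97924778 to 97926083, outside the interval. By width instead of score, 3 of the 13 peaks stood among the top 5% of their list, against 6 by score. The distance between sites 2 and 5 was 149408 bp for EWSR1-FLI1, 150162 bp for RING1B replicate 1 and 150552 bp for replicate 2. At site 5 RING1B is centred 826.5 and 1087.0 bp to the right of EWSR1-FLI1, which lengthens the distance measured on RING1B. The median distance between RING1B and EWSR1-FLI1 centres over the 3 shared sites was 99.50 to 112.00 bp when 1 RING1B replicate was left out, an alternative chosen after seeing the data. No paired analysis was possible because no result comes from a test. EWSR1-FLI1 has 1 sample, depth is unknown, and peaks below the caller's threshold cannot be seen.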
